A study of Rattus norvegicus with 4 samples.

Results

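Transcripts of 36 heat shock and unfolded protein genes, chosen as a named list, were followed in whole neonatal rat ovaries cultured with or without GDNF (glial cell line-derived neurotrophic factor). A listed gene was taken as measured where a probe set carried its symbol alone, and the brightest such probe set, by mean signal over the 4 arrays, stood for it. This gave 33 of the 36 genes, among 14217 genes with such a probe set in all: 10 of 13 cytosolic heat shock genes, all 3 mitochondrial chaperone genes and all 20 endoplasmic reticulum (ER) stress genes. Hspa1b, Hspa8 and Hsp90aa1 had only probe sets annotated to more than 1 gene, and their signals are not analysed here. All 33 lay above the filter on dim probe sets, a mean over the 4 arrays near a signal of 21.4.

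Ovaries of rat pups aged 4 days were kept for 2 days as whole organs on floating filters in medium with insulin, transferrin, ascorbic acid, albumin and antibiotics. No 2 ovaries of an animal went into the same group. The 2 control samples received no factor and the 2 GDNF samples were treated with GDNF, per their titles. Each sample was RNA of 6 to 10 pooled ovaries on 1 Affymetrix array, and the pools hold all the cell types of the organ. The treatment text deposited with all 4 samples is the same and describes ovaries without factor, so the treatment of the GDNF samples rests on their titles and descriptions, and neither the dose nor the strain is stated there. Nothing in the labels ties a replicate to a litter or a culture of its own, so the p-values speak only of the spread among these 4 samples, and that spread may be technical.

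Cells meet unfolded protein with separate programmes for each compartment. In the cytosol, the transcription factor Hsf1 raises chaperones of the Hsp70, Hsp90 and small heat shock families together with the J-domain proteins and nucleotide exchange factors that drive their cycles. In the ER, sensors in the membrane act through Xbp1, Atf6 and Atf4 to raise the lumenal chaperones, disulfide isomerases and degradation factors, and Atf4 also raises genes of amino acid supply and, under lasting stress, Ddit3. Oocytes build and secrete a glycoprotein coat, which passes through the ER. Transcript signals do not report the splicing of Xbp1, the cleavage of Atf6, the translation of Atf4 or the activation of Hsf1. These are the steps that switch these programmes on.

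None of the 33 measured genes passed the test for a difference between control and GDNF ovaries, and most fold changes were small. In limma, fitted over the whole array, 0 of 33 passed an adjusted p of 0.05, as did 0 of 10608 genes tested (0%), and 1 of the 33 had an unadjusted p under 0.05 against 3.13% of all genes and 2.73% of all probe sets tested. That count of 1 was 0 with median centring or without the trend in eBayes, 2 without control replicate 2, and 3 with either GDNF sample left out or with the replicate number as a block. Mean signals were higher in GDNF for 18 of the 33 and lower for 15, with a median log2 fold change (GDNF minus control) of 0.013, beside -0.0057 over all genes tested. The log2 fold change was smaller than 0.1 in either direction for 20 of the 33 (60.6%), a share that was 46.8% over all genes tested. The 95% interval of the fold change, unadjusted for gene number, lay inside a 1.5-fold difference either way for 26 of the 33 (78.8%). That share was 64.3% over all genes tested and 67.1% over the 10043 genes in the same range of mean signal. The range holds most of the 10608 genes tested, so those genes are not matched to the members in brightness. The control and GDNF samples did not overlap in 7 of the 33, beside 31.9% of all genes tested. Precision is limited by having 2 arrays a group, and an exact permutation of 2 against 2 cannot go below p = 0.333 (two-sided).

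**Figure D1:**
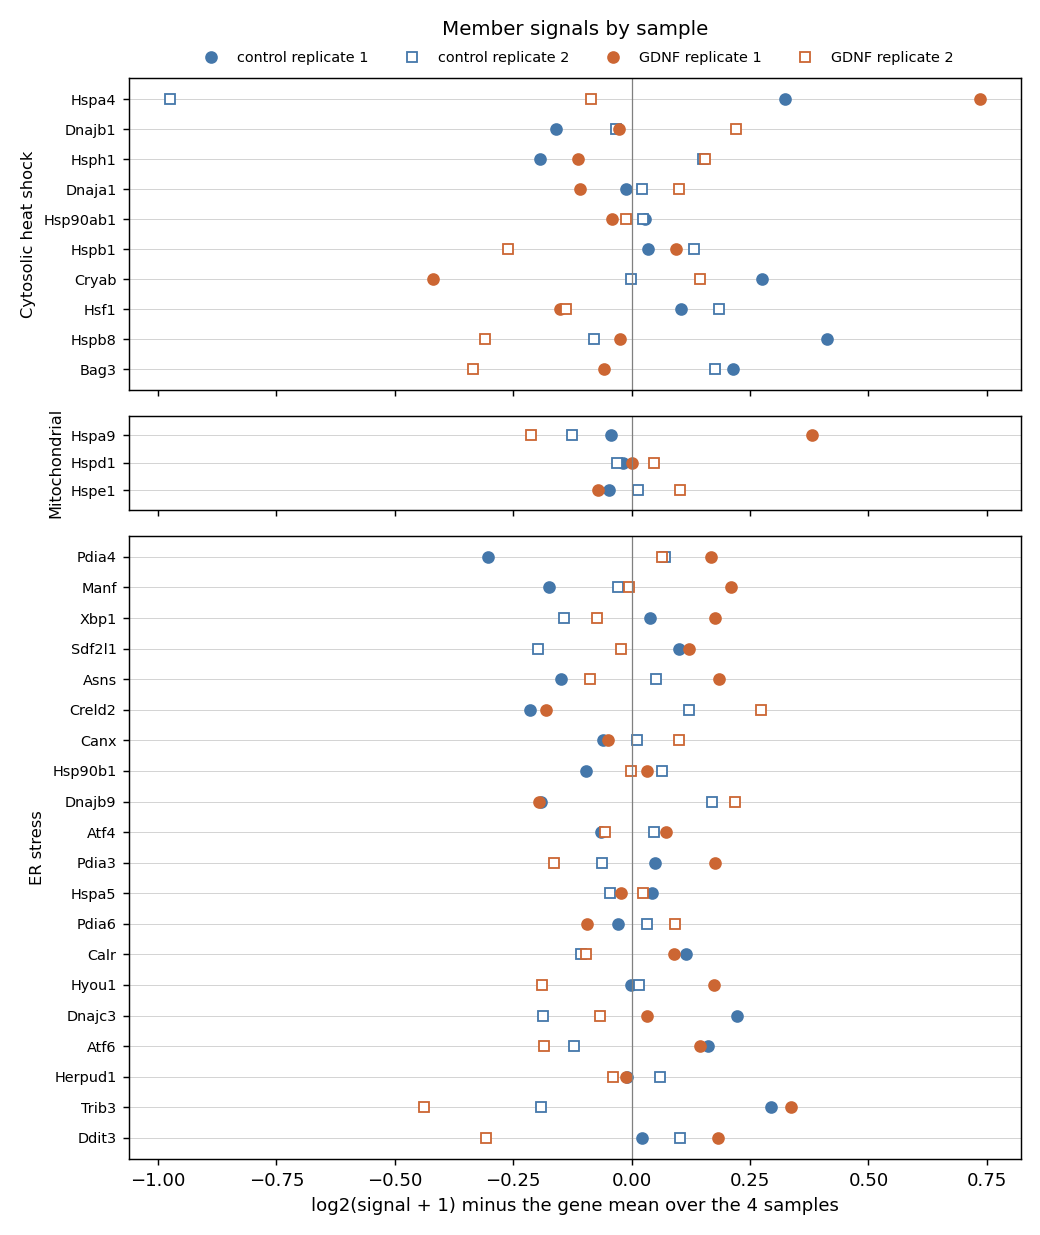
Log2(signal + 1) of each measured gene in each of the 4 samples, as the difference from that gene's mean over the samples, with filled circles for replicate 1, open squares for replicate 2, blue for control and orange for GDNF. Rows are ordered by fold change within each class, and the blue and orange symbols overlap in 26 of the 33 rows.

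ER chaperones had nearly equal signals in the groups. Hspa5 (probe set 1370283_at), the main Hsp70 of the ER lumen (BiP), had signals of 2959 and 2782 in the controls and 2826 and 2920.4 with GDNF. The control samples enclosed both GDNF samples, the GDNF-to-control ratio was 1.00, and its 95% interval ran from 0.863 to 1.16 (log2 fold change 0.0019, SE 0.091). Hsp90b1 (1388331_at), the Hsp90 of the ER (Grp94), had 1175 and 1313 in the controls and 1283 and 1255 with GDNF. Again both GDNF samples lay between the control samples, with a ratio interval of 0.866 to 1.21 (log2 fold change 0.031, SE 0.10). Calr and Canx, the lectin chaperones that hold newly made glycoproteins, had log2 fold changes of -0.0078 (SE 0.12) and 0.050 (SE 0.10), and the groups of both overlapped. The disulfide isomerases Pdia3 (0.013, SE 0.13) and Pdia6 (-0.0036, SE 0.10) overlapped as well.

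Several ER genes share a promoter sequence, and it is shown so that the members that hold an exact match can be read as a group. The ER stress element was searched on both strands as CCAAT, 9 bases of any kind and CCACG, in windows from 250 bases before to 50 bases after each RefSeq gene start (assembly GRCr8). Windows were found for 28 of the 36 listed genes. The element was present in 7 of 16 ER genes with a window, in no cytosolic or mitochondrial member, and in 0.0657% of all 33469 windows. Each match is given along the direction of the element, 5′ to 3′, with the fixed letters in capitals:
Hspa5 (chr3:38452973-38452991): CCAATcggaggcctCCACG
Hsp90b1, far site (chr7:23012451-23012469): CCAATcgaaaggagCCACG
Hsp90b1, near site (chr7:23012347-23012365): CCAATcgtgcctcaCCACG
Creld2 (chr7:121789239-121789257): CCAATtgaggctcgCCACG
Canx (chr10:35158069-35158087): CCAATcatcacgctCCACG
Xbp1 (chr14:84604558-84604576): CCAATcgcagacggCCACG
Dnajc3 (chr15:102432534-102432552): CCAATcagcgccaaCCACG
Calr (chr19:40213135-40213153): CCAATcagggtcgaCCACG

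The genomic strand of these genes is plus for Hspa5, Creld2, Xbp1, Dnajc3 and Calr and minus for Hsp90b1 and Canx. In Hspa5 the element ended 25 bases before the annotated start. The 250 bases upstream of Hspa5 (GRCr8 chr3:38452766-38453015, plus strand), with the element in capitals, are:
Hspa5: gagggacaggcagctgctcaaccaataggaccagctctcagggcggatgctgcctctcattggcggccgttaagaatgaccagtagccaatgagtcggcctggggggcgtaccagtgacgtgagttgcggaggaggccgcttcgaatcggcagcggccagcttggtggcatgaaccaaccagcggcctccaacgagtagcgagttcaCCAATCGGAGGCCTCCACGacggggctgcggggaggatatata

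The 7 genes with this element had log2 fold changes from -0.035 (Dnajc3) to 0.10 (Xbp1), with a median of 0.031. Their means were higher with GDNF for 5 and lower for 2, and the groups overlapped for all 7. The 9 ER genes whose windows lacked it had a median of 0.018 and ran from -0.13 to 0.23, with 1 of the 9 without overlap. Over all genes tested, 31.9% had no overlap. A match is a description of the letters and does not show binding. The lack of an exact match does not show that a gene is no target of the ER response. The shorter unfolded protein response element TGACGTGG, which shares letters with the other when read on the opposite strand, was found in 0.595% of all windows and in Hyou1 and Bag3 among the members, and no member held both elements.

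The transcription factors of the ER response did not separate the groups either. Xbp1 (1371249_at) had 797 and 702 in the controls and 877 and 738 with GDNF, and the higher sample of each group was replicate 1 (log2 fold change 0.10, SE 0.13). Atf4 (1367624_at) had 758 and 819.5 in the controls and 834 and 763 with GDNF, which interleave (0.018, SE 0.11). Atf6 (1392475_at) had 239 and 196 in the controls and 236 and 188 with GDNF. The GDNF samples of Atf6 nearly repeated the control pair, with a log2 fold change of -0.041 (SE 0.17). Ddit3 (1369590_a_at), the pro-apoptotic factor CHOP, had 128 and 135 in the controls and 143 and 102 with GDNF, so that the control pair lay inside the GDNF pair (-0.13, SE 0.19).

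Downstream of Atf4, Trib3 (-0.10, SE 0.35), a pseudokinase induced by Atf4 and Ddit3, and Asns (0.098, SE 0.20), which makes asparagine, overlapped between groups. Trib3 was the dimmest measured member, with 34.7 and 24.5 in the controls and 35.8 and 20.5 with GDNF. Its ratio interval was wide (0.524 to 1.66). It was the 1 of the 20 ER genes whose interval reached beyond 1.5-fold.

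Among the remaining ER genes, 2 had groups that did not overlap. Manf (1372352_at), a secreted ER protein released under stress, had 594 and 657 in the controls and 776 and 667 with GDNF. Both GDNF samples were the higher ones, but GDNF replicate 2 exceeded control replicate 2 by little, and the difference did not pass (log2 fold change 0.20, SE 0.12, limma adjusted p = 0.999). Herpud1 (1367741_at), which helps extract misfolded proteins for degradation, had 334 and 350.5 in the controls and 333 and 327 with GDNF, a difference of -0.051 (SE 0.11) that left control and GDNF replicate 1 almost equal. These are 1 of 20 without overlap on the higher side and 1 of 20 on the lower side, where 13.8% and 18.1% of all genes tested lay. Pdia4, a disulfide isomerase, had the highest fold change of the ER class (0.23, SE 0.15), with control replicate 1 apart at 412 and the other samples between 531 and 571. Without control replicate 1 its log2 fold change was 0.045. Dnajb9 (0.023), Dnajc3 (-0.035), J-domain partners of Hspa5, Hyou1 (-0.015), its exchange factor, Sdf2l1 (0.098), part of an ER chaperone complex, and Creld2 (0.093), a secreted ER stress protein, overlapped.

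Over the 20 ER genes, 12 means were higher and 8 lower with GDNF, and the median log2 fold change was 0.015. The median was -0.029 without GDNF replicate 1 and 0.10 without GDNF replicate 2, the ER median being highest in GDNF replicate 1 (0.10 above the genes' means) and lowest in GDNF replicate 2 (-0.047). The control samples lay between them, at -0.0051 and 0.014 in replicates 1 and 2. All 20 genes had a larger difference between the replicates of 1 group than between the groups, as did 79.5% of all genes tested.

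**Figure D2:**
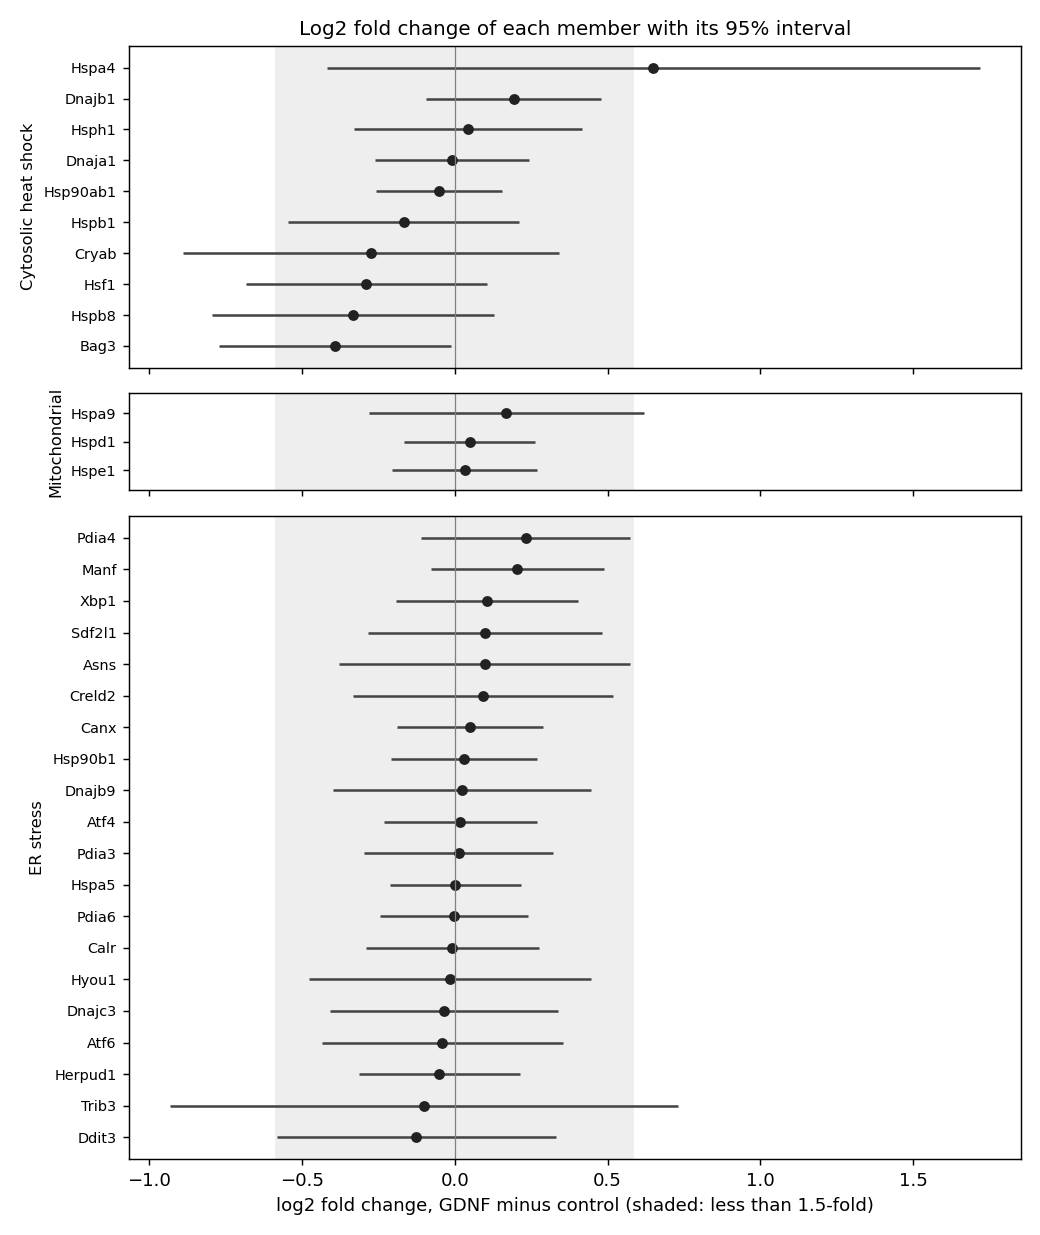
Log2 fold change (GDNF minus control, points) of each measured gene with its unadjusted 95% limma interval (lines), by class, with the range of less than a 1.5-fold difference shaded. Of the 20 ER genes 19 have intervals inside the shading, as do 5 of the 10 cytosolic and 2 of the 3 mitochondrial genes, and the interval of Bag3 alone does not include 0.

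Cytosolic heat shock genes spread over a wider range of log2 fold changes, -0.39 to 0.65, than the ER class, -0.13 to 0.23, a difference that was not tested. The upper end was Hspa4 alone (SE 0.45), a dim gene with wide scatter, and the next highest cytosolic gene was Dnajb1 at 0.19. Bag3 (1390026_at), an exchange factor that hands clients of Hsp70 to autophagy, had 141 and 137 in the controls and 116 and 95.8 with GDNF. Both GDNF samples were lower, and the log2 fold change was -0.39 (SE 0.16, unadjusted p = 0.0453 and adjusted p = 0.999 in limma). Left out in turn, single samples moved it between -0.53 and -0.25. Hsf1 (1370917_at), the transcription factor of the class, had 85.8 and 90.7 in the controls and 71.7 and 72.3 with GDNF. The pairs were tight and did not overlap, and at this brightness the fitted error was still large beside the difference (-0.29, SE 0.17, limma adjusted p = 0.999). Hsp90ab1 (1375336_at), the constitutive cytosolic Hsp90, had 3027 and 3016 in the controls and 2884 and 2943 with GDNF, a small difference without overlap (-0.052, SE 0.088), and its ratio interval was 0.836 to 1.11. Its second, dimmer probe set had 1071 and 1084.5 in the controls and 1314 and 788 with GDNF, which overlap (-0.083, SE 0.22).

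Dnajb1 (1388722_at), a J-domain protein that stimulates Hsp70, was the 1 cytosolic member without overlap on the higher side. It had 686 and 749 in the controls and 752 and 893 with GDNF. Control replicate 2 and GDNF replicate 1 were within a few units of each other, and the log2 fold change was 0.19 (SE 0.12). A second, dimmer probe set of Dnajb1 had 374 and 349 in the controls and 361 and 343 with GDNF, with a log2 fold change of -0.039 (SE 0.11), so the direction was not shared by its probe sets. The counts without overlap in this class, 1 of 10 higher and 3 of 10 lower, stand beside 13.8% and 18.1% of all genes tested.

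**Figure D3:**
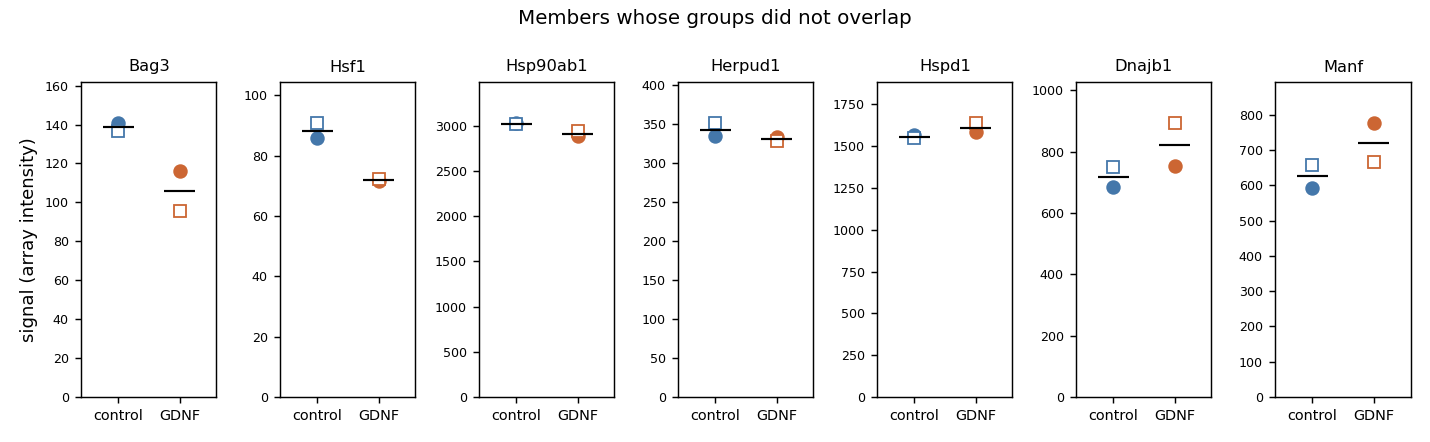
Signal (linear array intensity, axes from 0) of the 7 measured genes whose control and GDNF samples did not overlap, with circles for replicate 1, squares for replicate 2 and a bar at each mean of 2 samples. Bag3, Hsf1, Hsp90ab1 and Herpud1 are lower and Hspd1, Dnajb1 and Manf higher in GDNF, and the pairs of Hsp90ab1, Herpud1 and Hspd1 nearly coincide on this scale.

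The small heat shock proteins had lower means in GDNF with overlapping groups. Hspb8, the partner of Bag3, had 260.2 and 185 in the controls and 192 and 157 with GDNF (-0.33, SE 0.20), and -0.087 without control replicate 1. Its dimmer probe set gave -0.19 (SE 0.43). Cryab, the lens and muscle crystallin, had 59.5 and 49 in the controls and 36.4 and 54.3 with GDNF, with GDNF replicate 1 alone below the others (-0.27, SE 0.26, and 0.0078 without that sample). Hspb1 had 187 and 199.8 in the controls and 194.5 and 152 with GDNF, with GDNF replicate 2 alone below (-0.17, SE 0.16, and 0.011 without it).

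The exchange factors of the Hsp110 family differed in precision. Hsph1 had 325 and 413 in the controls and 344 and 414 with GDNF, the replicate 2 samples being high in both groups (0.043, SE 0.16). Hspa4 had 64.2 and 25.5 in the controls and 85.7 and 48.1 with GDNF, the widest scatter of the 33 genes. Its fold change was the largest of the set and its interval spanned a ratio of 0.749 to 3.29 (0.65, SE 0.45), with 0.0010 without control replicate 2. Dnaja1, another J-domain partner of Hsp70, had -0.0091 (SE 0.11).

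Over the 10 cytosolic genes, 3 means were higher and 7 lower with GDNF, with a median of -0.11. The median was -0.015 without GDNF replicate 1. The mitochondrial chaperones, which fold imported proteins, had small positive differences. Hspd1 and Hspe1, the chaperonin (Hsp60) and its lid (Hsp10), had log2 fold changes of 0.049 (SE 0.091) and 0.033 (SE 0.10). Hspd1 (1386894_at) had 1564 and 1549 in the controls and 1584 and 1636 with GDNF, without overlap, and Hspe1 overlapped. Hspd1 was the 1 of 3 in this class without overlap, beside 31.9% of all genes tested. Hspa9, the Hsp70 of the matrix, had 412 and 389 in the controls and 554 and 366 with GDNF, so that GDNF replicate 1 stood apart (0.17, SE 0.19, and -0.13 without it).

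The heat shock element was searched on both strands as GAA, 2 bases of any kind, TTC, 2 bases of any kind and GAA, and was found in 0.798% of all windows. It was present in 5 of the members with a window (Dnaja1, Hsph1, Hspa8, Hspd1 and Hspe1) and in no ER gene. The matches are shown because Hspd1 and Hspe1 hold the same ones: these genes are divergent neighbours on chromosome 9 whose windows share 211 bases. The sites of the 4 measured genes are given along the element, 5′ to 3′, with fixed letters in capitals:
Dnaja1 (chr5:60638413-60638425): GAActTTCcaGAA
Hsph1 (chr12:10427332-10427344): GAActTTCcaGAA
Hspd1 and Hspe1, first site (chr9:64084262-64084274): GAAggTTCtaGAA
Hspd1 and Hspe1, second site (chr9:64084267-64084279): GAAccTTCcgGAA

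The sites of Hspd1 and Hspe1 overlap each other on opposite strands. The site of Dnaja1 lies after the annotated start, and its letters equal those of Hsph1. The 250 bases upstream of Hspe1 (GRCr8 chr9:64084077-64084326, plus strand), with the paired sites in capitals, are:
Hspe1: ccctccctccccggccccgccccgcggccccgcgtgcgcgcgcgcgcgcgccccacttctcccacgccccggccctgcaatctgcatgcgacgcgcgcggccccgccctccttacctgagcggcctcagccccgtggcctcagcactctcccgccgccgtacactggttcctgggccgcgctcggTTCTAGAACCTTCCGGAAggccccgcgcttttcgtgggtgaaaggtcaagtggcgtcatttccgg

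The 4 measured genes with a heat shock element had log2 fold changes between -0.0091 and 0.049, with a median of 0.038. All 4 are named above, and Hspd1 was the 1 of 4 without overlap, beside 31.9% of all genes tested.

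Many members differed more between the replicates than between the treatments. Dnajb9, the J-domain protein ERdj4, had 374 (replicate 1) and 480.1 (replicate 2) in control, and with GDNF 373 (replicate 1) and 497 (replicate 2). Creld2 had 493 and 622 in the controls and 505 and 691 with GDNF. In both genes, as in Hsph1, replicate 2 was the higher sample of each group and the treatments were nearly superimposed. Atf6, Calr, Xbp1, Sdf2l1, Dnajc3 and Trib3 ran the other way, with replicate 2 the lower sample of each group. Replicate 2 was higher in both groups for 9 of the 33 genes and lower in both for 11, so that 60.6% kept the same order, beside 61.2% of all genes tested.

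**Figure D4:**
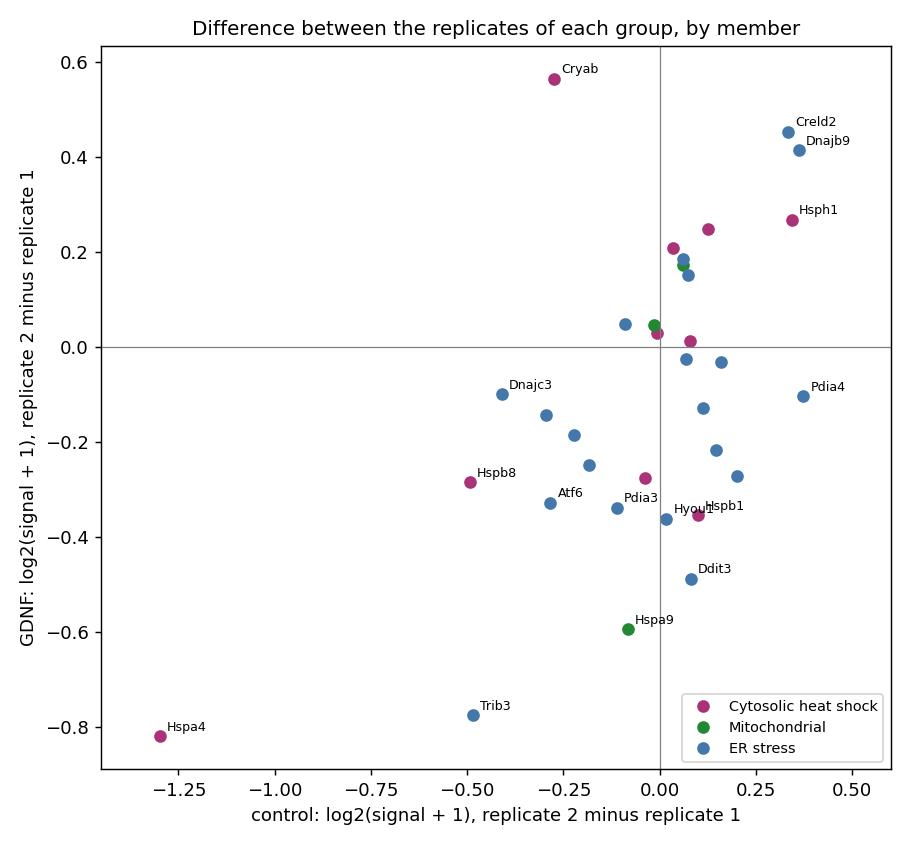
Difference between replicate 2 and replicate 1 in log2(signal + 1), in the control group (horizontal) and in the GDNF group (vertical), for each of the 33 measured genes, coloured by class and named where either difference exceeds 0.3. Genes in the upper right, such as Creld2 and Dnajb9, are higher in both replicate 2 samples, and genes in the lower left, such as Hspa4 and Trib3, are lower in both.

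Additional probe sets existed for 11 of the 33 genes. Of the 11 further probe sets that passed the filter, 2 had the opposite direction to the brightest one, those of Dnajb1 and Canx. The opposite probe set of Canx had 196 and 217 in the controls and 279 and 123 with GDNF, a scatter that left its direction unsettled (-0.15, SE 0.34). A dimmer probe set of Hsph1 did not overlap (0.24, SE 0.17), nor did one of Hspa9 (0.34, SE 0.28), both higher in GDNF.

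Other genes of these pathways were listed by role. Of 174 listed, 155 were tested and 0 passed in limma in either direction. An unadjusted limma p under 0.05 was found for 1 of the 155, beside 3.13% of all genes tested. Means were higher for 74 and lower for 81, with a median log2 fold change of -0.0043. In all, 21 of the 155 did not overlap on the higher and 26 on the lower side, beside 13.8% and 18.1% of all genes tested. The 42 genes tested from the list of other cytosolic chaperones and co-chaperones had 23 higher and 19 lower means. That list also holds genes that are not cytosolic chaperones, such as Serpinh1, Hmox1, Sqstm1 and Hsf2. In that list St13, a co-chaperone of Hsp70 (0.14, SE 0.096), and Dnajc2 (0.27, SE 0.20) had the smallest p among the higher genes, and Dnajc2 was at -0.045 without GDNF replicate 2. Hspb7 (-0.35, SE 0.21) and Unc45a, a myosin chaperone (-0.23, SE 0.14), had it among the lower. Without control replicate 2 Hspb7 was at -0.16. Hspa1a, an Hsp70 gene that is not a member, had the lowest log2 fold change of the list (-0.41, SE 0.31) at dim signals. It had 35.1 and 23.9 in the controls and 23.2 and 19.9 with GDNF, without overlap, and was at -0.15 without control replicate 1. In this list 7 of the 42 did not overlap on the higher and 6 on the lower side, beside 13.8% and 18.1% of all genes tested. The 12 mitochondrial genes split into 6 and 6, led by Grpel1, the exchange factor of Hspa9 (0.17, SE 0.11), Spg7 (0.16, SE 0.20), Hscb (-0.080, SE 0.11) and Clpx (-0.060, SE 0.11). Without control replicate 1, Spg7 was at -0.034 and Clpx at -0.0078.

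Of 54 other ER folding and degradation genes tested, 21 had higher and 33 lower means (median -0.026), and 6 of the 54 did not overlap on the higher and 14 on the lower side, beside 13.8% and 18.1% of all genes tested. Ube2j1, a ubiquitin-conjugating enzyme of ER degradation (0.22, SE 0.13), and Ero1b, an oxidase of the isomerases (0.32, SE 0.21), had the smallest p among the higher genes, and Ero1b was at 0.020 without GDNF replicate 2. Edem1, which directs misfolded glycoproteins to degradation, had 362 and 336.5 in the controls and 322.5 and 280.1 with GDNF. Both GDNF samples were lower (-0.22, SE 0.13), as were those of Nploc4, a cofactor of the Vcp segregase (-0.19, SE 0.13). None of these passed over all probe sets.

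Of 20 tested genes listed as sensors and factors of the unfolded protein response, 9 had higher and 11 lower means. Without overlap were 2 of the 20 on the higher and 2 on the lower side, beside 13.8% and 18.1% of all genes tested. That list also holds kinases of other stresses, Eif2ak2 among them. Mbtps2, the protease that completes Atf6 cleavage, had 222 and 271 in the controls and 293 and 303 with GDNF, without overlap (0.28, SE 0.14), and Nfe2l2 had 0.12 (SE 0.097). Creb3l1 had -0.53 (SE 0.31), which rested on control replicate 1 (-0.046 without it), and Eif2ak2 had -0.20 (SE 0.17), or -0.018 without the same sample. Of 27 targets of the Atf4 amino acid response, 15 had higher and 12 lower means, and 5 of the 27 did not overlap on the higher and 3 on the lower side, beside the same 13.8% and 18.1%. The tyrosyl-tRNA synthetase gene Yars1 had 391 and 345 in the controls and 285 and 299 with GDNF (-0.33, SE 0.12, unadjusted p = 0.0304 and adjusted p = 0.999 in limma). Sesn2, a stress-induced regulator of mTOR signalling, had 134.4 and 134.2 in the controls and 111 and 104 with GDNF (-0.32, SE 0.15). The threonyl-tRNA synthetase gene Tars1 (0.25, SE 0.13) and the serine synthesis gene Psat1 (0.15, SE 0.11) had the smallest p among the higher ones.

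Marker genes of the cells in these ovaries were counted in the same way, and 0 passed in limma. The unadjusted p was under 0.05 in limma for 3 of 7 oocyte, 4 of 9 granulosa and 1 of 4 theca genes tested. The same held for 2 of 8 surface epithelium and 1 of 6 smooth muscle genes. The other marker lists had 0, and the share over all genes tested was 3.13%. Summed signal of 7 oocyte genes was 4008 and 5015 in the controls and 5329 and 6696 with GDNF, with 7 of 7 means higher. The oocyte list held 14 genes, of which 7 were measured. Of 6 theca genes 4 were tested, and markers such as Insl3, Cd3e and Fosb lay below the filter. Summed signal of 8 surface epithelium genes was 8280 and 7202 in the controls and 6805 and 6302 with GDNF, with 8 of 8 means lower, and that of 6 smooth muscle genes was 442 and 414 in the controls and 340.3 and 349.8 with GDNF, with 5 of 6 lower. Granulosa (7 of 9 higher), theca (3 of 4 higher), erythroid (2 of 2 higher), endothelial (5 of 6 lower), leukocyte (6 of 7 lower) and immediate early genes (7 of 10 lower) were also listed. Cryab, Hspb8 and Bag3, which are abundant in muscle, had lower means in the GDNF group, as had 7 of the 10 cytosolic members in all. The groups of Cryab and Hspb8 overlapped. The smooth muscle and surface epithelium sums were also lower, and the part of these cells in the values of the 3 genes was not tested. In whole ovaries, fewer cells of a type and less RNA per cell cannot be told apart. The 3′ to 5′ signal ratio of the beta-actin control probe sets was 3.34 to 3.76 in control and 2.62 to 3.61 in GDNF samples. That of Gapdh was 1.28 and 1.22 in the controls and 1.11 and 1.44 with GDNF, so that GDNF replicate 1 had the lowest ratio for both and GDNF replicate 2 the highest for Gapdh.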

How the data were processed

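The authors deposited linear array intensities (MAS5 signals, per the submitters' processing notes, with no version), 1 value per probe set for each of 4 arrays. All 4 arrays had a trimmed mean of 125, so a change in total RNA cannot be seen. Of 31099 probe sets, 57 Affymetrix controls were left out, and the 18625 whose mean log2(signal + 1) was at or above the 40th percentile were tested. GEO's annotation of the platform gave the gene names (20826 with 1 symbol, 436 with several, 9780 with none).

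Groups were compared on log2(signal + 1) with limma 3.58.1 in R 4.3.3 (lmFit, eBayes with a mean-variance trend), two-sided, with Benjamini-Hochberg adjustment over all probe sets tested. SE is limma's moderated error, and fold changes of dim genes are understated by the pseudocount of 1. The script was tested on simulated data. Alternatives changed the pseudocount (16), the filter (none, or the 60th percentile), the scaling (median centring or quantile normalization), the trend (left out), the choice of probe set and the design (a replicate block), and left out each sample. Sequences came from RefSeq (GRCr8) and figures were drawn with matplotlib 3.10.9. Protein sequences were not used here.

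Members and lists were chosen with earlier results of these data known. Among the 33 measured members, each sample's signal is given for 5 transcription factors (Hsf1, Xbp1, Atf4, Atf6 and Ddit3), the chaperones Hsp90ab1, Hspa5 and Hsp90b1, those without overlap and those with an unadjusted p under 0.05. Some others are shown by sample where their replicates are described. Each further list is illustrated by its 2 lowest p-values on either side, and Hspa1a is given besides.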

Additional observations from a re-analysis of the deposited data

How the results depend on the processing

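No member passed the adjusted threshold in limma under any alternative run, and no gene of the other pathway lists did, including with each sample left out (0 in each case). With the replicate number as a block, 8 probe sets of the whole array passed instead of 0, none of them a member (the oocyte gene Gdf9 was 1), and the lowest adjusted p of a member was 0.47 (Hspa4). Same-numbered samples deviated together over all probe sets tested (r = 0.323), over 2 pairs, and no label gives the number a meaning.

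Of 293 member values under other settings than leaving out a sample, 285 kept their direction. The 8 others were: Dnaja1 (0.0073), Calr (0.0086), Pdia6 (0.013) and Hyou1 (0.0013) with median centring, Hspa5 (-0.026), Pdia3 (-0.0045) and Hyou1 (0.0082) with quantile normalization, and Canx (-0.022) with all its tested probe sets averaged. With each sample left out in turn, the cytosolic median ran from -0.11 to -0.015, the ER median from -0.029 to 0.10 and the mitochondrial median from 0.026 to 0.072. Directions held in 10 of 33 members (Bag3, Dnajb1, Herpud1, Hsf1, Hsp90ab1, Hspa4, Hspb8, Hspd1, Manf and Pdia4) and turned in 23. The latter ran as follows: Asns from -0.038 to 0.23, Atf4 from -0.046 to 0.082, Atf6 from -0.20 to 0.12, Calr from -0.12 to 0.10, Canx from -0.026 to 0.13, Creld2 from -0.13 to 0.32, Cryab from -0.56 to 0.0078, Ddit3 from -0.37 to 0.12. Next were Dnaja1 from -0.11 to 0.094, Dnajb9 from -0.18 to 0.23, Dnajc3 from -0.24 to 0.17, Hsp90b1 from -0.049 to 0.11, Hspa5 from -0.043 to 0.047, Hspa9 from -0.13 to 0.47, Hspb1 from -0.34 to 0.011, Hspe1 from -0.054 to 0.12. The rest were Hsph1 from -0.13 to 0.21, Hyou1 from -0.20 to 0.17, Pdia3 from -0.16 to 0.18, Pdia6 from -0.10 to 0.089, Sdf2l1 from -0.050 to 0.25, Trib3 from -0.49 to 0.29 and Xbp1 from -0.020 to 0.23. The filter at the 60th percentile left 29 members. The widest errors were those of Hspa4, Trib3 and Cryab (SE 0.45, 0.35 and 0.26), which are among the dimmer members, and the cause was not tested. Over all probe sets, 508 had an unadjusted p under 0.05, with 1355 under the block and from 142 (without control replicate 1) to 1927 (without GDNF replicate 1) with a sample left out.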
